A study of Mus musculus with 2 samples.

Results

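Acyl-CoA thioesterases are enzymes that split a fatty acyl-CoA into the free fatty acid and coenzyme A, the reverse of what the acyl-CoA synthetases do. RNA-Seq values of 9 of their genes, Acot1, Acot2, Acot3, Acot4, Acot7, Acot8, Acot9, Acot11 and Acot13, were compared between brown preadipocytes (D0) and brown adipocytes (D7). The genes were chosen by name, from the symbol column of a table with 23361 genes that carried values, and all 9 were present. The rule used names and no levels. Preadipocytes are the precursor cells of adipocytes, and these were isolated from newborn C57BL/6 mice (C57BL/6J in the methods of the study), out of their interscapular brown fat (brown adipose tissue). The D0 library is the cells at day 0, labelled preadipocytes, and the D7 library is the cells at day 7. Both were first grown with 20% serum and then plated 4 days before day 0 in a medium with 10% serum that held insulin at 0.1 μM and the thyroid hormone T3 at 1 nM. At day 0 the cells that became the D7 library were also given, for 2 days, indomethacin at 0.125 mM, the phosphodiesterase inhibitor IBMX at 0.5 mM and the glucocorticoid dexamethasone at 2 μg/ml. The labels call the cells primary cultures, whereas the methods of the study describe immortalization with a retroviral large T and other doses of insulin and dexamethasone. The sources used here do not say whether the cells of several mice were pooled. Each stage was 1 library, so no difference has a replicate check and no p-value is given.

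The acyl-CoA thioesterases have 2 unrelated structural types. Type I enzymes (Acot1 to Acot4 here) are related in sequence and lie in 1 gene cluster. Type II enzymes (Acot7, Acot8, Acot9, Acot11 and Acot13) carry the hot dog fold and lie apart. Each member is known from a main compartment: the cytosol for Acot1, Acot7 and Acot11, mitochondria for Acot2, Acot9 and Acot13, and peroxisomes for Acot3, Acot4 and Acot8. Brown adipocytes burn fatty acids in mitochondria to make heat, and an acyl-CoA must be made before it can be burned, stored or hydrolysed. Several type I genes are known targets of PPARα, a nuclear receptor that switches on fatty acid oxidation. The compartments are background knowledge and were not measured in these cells.

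The coding sequences of the cluster are shown first, because Acot1 and Acot2 are so alike that the values of the pair cannot be read apart with certainty. Coordinates are those of mm10 (GRCm38) and the sequences are those of the GENCODE M21 transcripts. Acot1 has 419 codons and Acot2 has 453. Acot2 opens with 123 coding bases (chr12:83987902-83988024, plus strand) that have no counterpart in Acot1, and the mitochondrial targeting leader of the enzyme lies in this stretch.
Acot2 leader: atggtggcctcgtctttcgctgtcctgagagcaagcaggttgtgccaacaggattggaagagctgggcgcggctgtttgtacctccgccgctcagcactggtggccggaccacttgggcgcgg
After the leader the genes run in parallel. In the 60 bases that open the Acot1 coding sequence (chr12:84009510-84009569) and their counterpart in Acot2 (chr12:83988025-83988084), the 10 bases that differ are in capitals.
Acot1 start: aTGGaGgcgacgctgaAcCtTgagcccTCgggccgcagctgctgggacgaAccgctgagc
Acot2 after its leader: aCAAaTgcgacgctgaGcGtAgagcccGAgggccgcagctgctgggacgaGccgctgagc
Over the 1239 bases compared, 1180 were identical, which is 95.2%. Acot1 and Acot3 were 83.9% identical over their coding sequences, and Acot4 was 74.8% identical to Acot1.

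The last 30 coding bases show where the family members part. Peroxisomal enzymes usually carry their import signal in the last residues, and the 3 codons before the stop are in capitals.
Acot1 end (chr12:84017350-84017379): gagtgtttgcatgtgtctCCTAAAATAtaa
Acot2 end (chr12:83993051-83993080): ttccacaaacagttgggtAGCAAGAGTtag
Acot3 end (chr12:84058997-84059026): aaaaagaagacaatcccaGCAAAACTGtga
Acot4 end (chr12:84043767-84043796): acccacagcagagcctccTGTAGACTGtag
Acot8 end (chr2:164792892-164792921, minus strand): aagcctcaggtgtcagagAGTAAGCTAtag
In Acot3, Acot4 and Acot8, the members known from peroxisomes, the last codon before the stop is one for leucine, with a codon for lysine or arginine before it. In Acot1 and Acot2 the last codon is not one for leucine.

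Levels are given as FPKM, in which the fragments of a gene are divided by its length in kb and by the depth of the library. Of the 9 genes, 8 were above 0 in both libraries. Of these 8, Acot2 and Acot4 (25.0%) were at least 2.0-fold higher at D7 and Acot7 (12.5%) was lower, whereas 5 stayed within 2.0-fold. Over all 14986 genes above 0 in both libraries, 18.5% were higher and 13.2% were lower by the same rule, so that the shares of the family lay near those of all genes. The median ratio of D7 to D0 was 1.16 over the 8 genes and 1.01 over all genes. In another scaling, chosen after seeing the data, with values under 0.01 raised to 0.01 and both libraries brought to the same median over all genes, 2836 genes were higher and 3832 lower in place of 2767 and 1980. That scaling lowered the log2 ratio of genes above 0.01 in both libraries, and the log2 median over the same 8 genes went from 0.22 to −0.14.

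**Figure D1:**
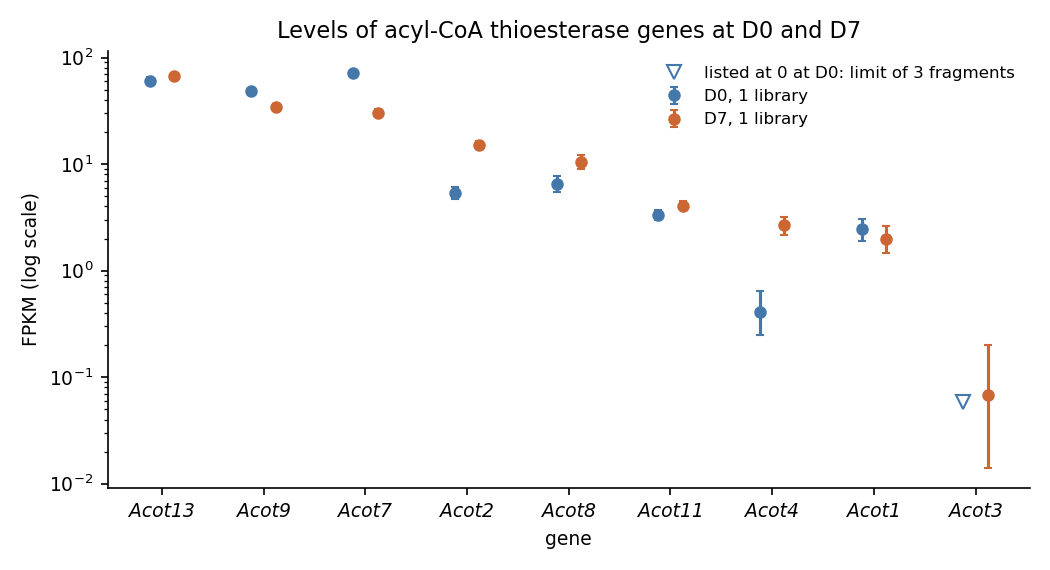
FPKM on a log scale (vertical axis) of the 9 genes (horizontal axis, in order of their level at D7) at D0 (blue) and D7 (orange), 1 library each. Bars are 95% intervals of the counted fragments, and the open triangle is the limit for Acot3, which was listed at 0 at D0. Acot13, Acot9 and Acot7 lie at 30.4 FPKM or more in both libraries, and the other 6 lie at 15.0 or less.

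Across the family the levels spanned a wide range. At D0 the highest was that of Acot7, followed by Acot13, Acot9, Acot8, Acot2, Acot11, Acot1, Acot4 and Acot3. The counting intervals of Acot8 and Acot2 overlapped there, as did those of Acot11 and Acot1, so that these neighbours cannot be ordered. At D7 the order was Acot13, Acot9, Acot7, Acot2, Acot8, Acot11, Acot4, Acot1 and Acot3, with overlap between Acot9 and Acot7 and between Acot4 and Acot1. Acot7 was thus first at D0 and below Acot13 at D7. The plot of levels by stage shows a gap between Acot7, Acot9 and Acot13 and the other genes in both libraries.

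Summed over the 9 genes, the level went from 198.9 FPKM to 165.7, and the ratio was 0.833. The members known from the cytosol went from 77.8 to 36.5 FPKM, a ratio of 0.468, and their share of the family from 39.1% to 22.0%. Those known from mitochondria summed to 114.1 and 116.0 FPKM, or 57.4% and 70.0% of the family. Those known from peroxisomes summed to 6.88 and 13.2 FPKM, or 3.46% and 7.95%. The cytosolic sum followed Acot7, which alone made up 36.2% of the family at D0 and 18.3% at D7. By structural type, the type I sum went from 8.17 to 19.7 FPKM and the type II sum from 190.7 to 146.0. In a culture, fewer cells of a type and less RNA per cell cannot be told apart.

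**Figure D2:**
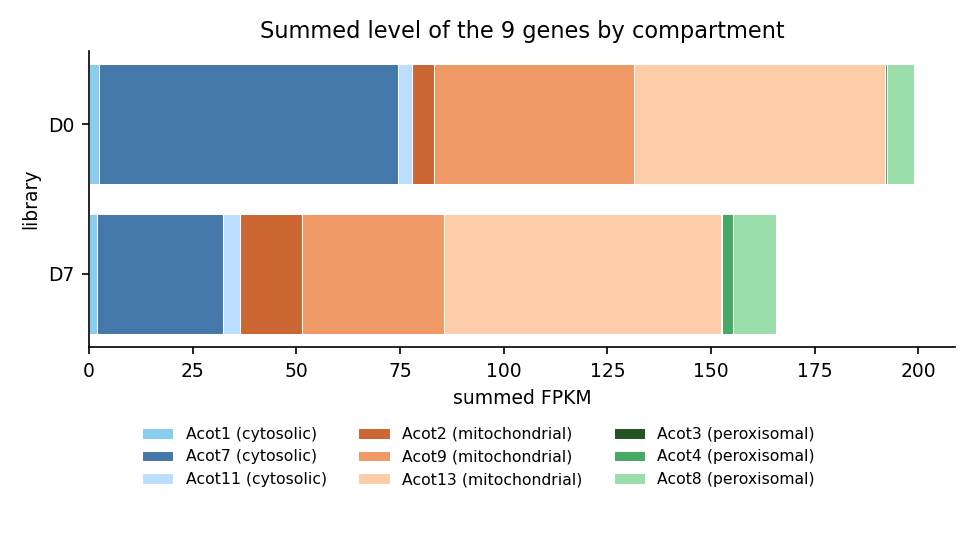
Summed FPKM (horizontal axis) of the 9 genes in the D0 and the D7 library (vertical axis), with 1 coloured segment per gene. The 3 blue cytosolic segments sum to 77.8 FPKM at D0 and 36.5 at D7. The orange mitochondrial ones sum to 114.1 and 116.0, and the green peroxisomal ones to 6.88 and 13.2.

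Acot7 (ENSMUSG00000028937.14, chromosome 4, 152178134 to 152271855, plus strand, 9 exons), first described as the acyl-CoA hydrolase of brain, hydrolyses long-chain acyl-CoA in the cytosol. About 1978 fragments gave it 72.1 FPKM at D0, and about 708 gave it 30.4 FPKM at D7. It was the only member lower at D7 by 2.0-fold, with a ratio of 0.422 (exact 95% interval 0.387 to 0.460). Such intervals cover the counting of fragments in 2 libraries and nothing else. None of the windows of 90 bases in its transcript, the length of a read, was shared with another gene.

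Acot1 and Acot11 are the other cytosolic members. Acot1 (ENSMUSG00000072949.6, chromosome 12, 84009490 to 84018371, plus strand, 3 exons), a long-chain thioesterase, was at 2.43 FPKM in the D0 library (about 72 fragments) and 1.99 in the D7 library (about 50). Its ratio of 0.818 (95% interval 0.559 to 1.19) could not be set apart from no difference at this depth. Acot11 (ENSMUSG00000034853.16, chromosome 4, 106744555 to 106804998, minus strand, 16 exons) encodes a thioesterase also known as Them1, which was first found as a cold-induced gene of brown fat. Its level was 3.33 FPKM at D0 and 4.07 at D7, from about 392 and 408 fragments. The ratio was 1.22 (95% interval 1.06 to 1.41), and 0.959 in the scaling to equal medians, so that its direction depends on the scaling. Of 5674 exon bases of Acot11, 1263 overlap Fam151a on the opposite strand, which was listed at 0 in both libraries.

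Among the mitochondrial members, Acot13 and Acot9 were abundant at both stages. Acot13 (ENSMUSG00000006717.7, chromosome 13, 24817948 to 24831540, minus strand, 3 exons), also known as Them2, is a small thioesterase that binds phosphatidylcholine transfer protein. It stood at 60.6 FPKM at D0 and 66.8 at D7, from about 660 and 615 fragments. The ratio was 1.10 (95% interval 0.986 to 1.23), and 0.863 in the scaling to equal medians. With Acot7 lower, Acot13 became the most abundant member and went from 30.5% to 40.3% of the summed level. The ratio of its binding partner Pctp was 1.94, from 2.13 to 4.13 FPKM.

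Acot9 (ENSMUSG00000025287.15, chromosome X, 155262443 to 155297654, plus strand, 15 exons), which hydrolyses acyl-CoA in mitochondria, had 48.2 FPKM at D0 and 34.2 at D7. The ratio was 0.711 (95% interval 0.652 to 0.774), from about 1416 and 854 fragments, which is lower but within 2.0-fold. Of the windows of 90 bases in Acot9, 92.0% had a counterpart in Acot10 with at most 5 mismatches, the number that the aligner allowed, and 3.56% had an exact one. Acot10, a single-exon near copy with 97.2% identity over the coding sequence, was listed at 0 in both libraries.

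Acot2 (ENSMUSG00000021226.7, chromosome 12, 83987861 to 83993873, plus strand, 3 exons), the mitochondrial long-chain enzyme, was at 5.33 FPKM at D0 and 15.0 at D7. About 231 and 551 fragments stood behind these values, and the ratio was 2.81 (95% interval 2.40 to 3.29). A total of 87.9% of all genes had a smaller ratio. Its level was 2.19 times that of Acot1 at D0 and 7.54 times at D7. The intervals of the ratios of Acot1 and Acot2 did not overlap.

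The similarity shown in the sequences above bears on this pair. Of 1469 windows of 90 bases in Acot1, 389 also occur in Acot2, and 68.4% have a counterpart in the family with at most 5 mismatches. In Acot2 the share of windows with such a counterpart is 44.3%. How reads that fit both genes were assigned is not given in the sources used here, so the division between Acot1 and Acot2 is uncertain. Summed, the pair went from 7.76 to 17.0 FPKM, a ratio of 2.19.

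**Figure D3:**
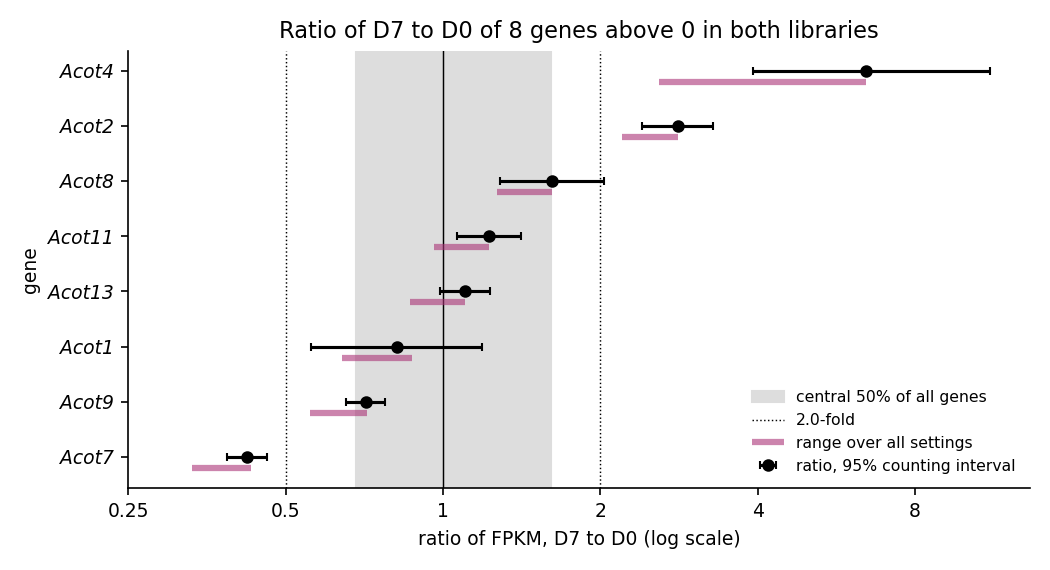
Ratio of FPKM at D7 to D0 on a log scale (horizontal axis) of the 8 genes above 0 in both libraries (vertical axis), with exact 95% intervals of the counted fragments. Pink bars are the range over all settings, and the grey band holds the central 50% of all genes, 0.683 to 1.61. Acot2 and Acot4 stay above 2.0 and Acot7 below 0.5 in every setting drawn.

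Of the peroxisomal members, Acot4 had the highest ratio of the family. Acot4 (ENSMUSG00000052392.5, chromosome 12, 84038379 to 84048601, plus strand, 3 exons) is known to hydrolyse succinyl-CoA. About 19 fragments gave it 0.412 FPKM at D0, and about 104 gave it 2.66 at D7. The ratio was 6.44 (95% interval 3.93 to 11.1), and it was larger than that of 95.2% of all genes. With a pseudocount of 1, which shrinks ratios of low values, it was 2.59. Exons of Acot4 overlap 4732463B04Rik on the opposite strand over 615 of 2325 bases. Of 2236 read-length windows in the Acot4 transcript, 572 also occur in another gene, 44 of them in the family. No level was found for 4732463B04Rik, and the use of strand in counting is not stated. The part of 4732463B04Rik reads in the values and the ratio of Acot4 was not tested.

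Acot8 (ENSMUSG00000017307.16, chromosome 2, 164792765 to 164804882, minus strand, 6 exons), a type II enzyme of broad substrate range, was at 6.47 FPKM at D0 and 10.5 at D7. The ratio of 1.62 (95% interval 1.29 to 2.03), from about 135 and 185 fragments, lay above 1 but did not pass 2.0. Its exons overlap Snx21 on the opposite strand over 243 of 1151 bases, and Snx21 was at 12.5 and 16.6 FPKM. The libraries kept strand information, but its use in counting is not stated, and the part of Snx21 reads in the value of Acot8 was not tested.

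Acot3 (ENSMUSG00000021228.15, chromosome 12, 84052144 to 84060402, plus strand, 4 exons), a long-chain thioesterase of peroxisomes, was listed at 0 at D0 and at 0.0681 FPKM at D7. The D7 value is about 3 fragments, which is the floor, and 3 fragments at D0 would have been 0.0579 FPKM. No fold is given, because both libraries were at or under the floor. Acot3 was therefore not detectable above this limit at either stage.

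In the cluster on chromosome 12 the genes lie in the order Acot2, Acot1, Acot4, Acot3, Acot5 and Acot6 over 121.9 kb, and all are on the plus strand. Their summed level went from 10.0 FPKM to 23.1, and the ratio was 2.30. In the deposited values neighbours differed. Acot2 and Acot4 were higher at D7, while Acot1, which lies between them, had a ratio under 1 with an interval that includes 1. The division of reads between Acot1 and Acot2 is uncertain, and so is the contrast between them. Acot5, a further peroxisomal type I enzyme, was listed at 0 at D0 and had 0.697 FPKM at D7, from about 17 fragments. The D7 value of Acot5 was 6.68 times the level of 3 fragments at D0, without allowance for counting error. The ratio of Acot6, from 1.84 to 2.67 FPKM, was 1.45 (95% interval 1.03 to 2.04).

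**Figure D4:**
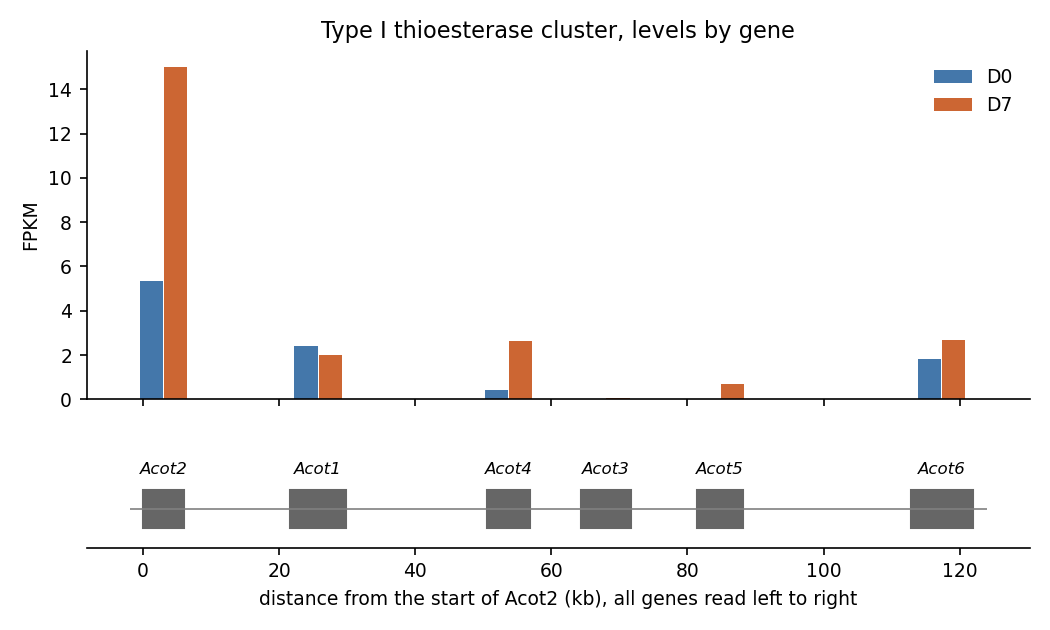
FPKM (vertical axis) of the 6 genes of the type I cluster at D0 (blue) and D7 (orange), 1 library each, above a map of their positions in kb from the start of Acot2 (horizontal axis). Acot2 goes from 5.33 to 15.0 and Acot4 from 0.412 to 2.66, while Acot1 between them goes from 2.43 to 1.99. The division of reads between Acot1 and Acot2 is uncertain.

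Upstream sequences are shown for Acot1, Acot2 and Acot4, neighbours in the cluster, from 250 bases before the RefSeq start (GRCm38.p6) to the start. Capitals mark AGGTCA, which is the PPAR half-site, TATAAA, the letters of a TATA box, and CCAAT, each on either strand.
Acot1 (chr12:84009252-84009501, plus strand): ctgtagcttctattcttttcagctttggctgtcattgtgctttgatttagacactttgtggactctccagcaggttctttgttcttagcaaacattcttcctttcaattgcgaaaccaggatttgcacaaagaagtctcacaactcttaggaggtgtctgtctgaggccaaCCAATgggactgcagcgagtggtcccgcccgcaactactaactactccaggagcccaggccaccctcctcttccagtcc
Acot2 (chr12:83987611-83987860, plus strand): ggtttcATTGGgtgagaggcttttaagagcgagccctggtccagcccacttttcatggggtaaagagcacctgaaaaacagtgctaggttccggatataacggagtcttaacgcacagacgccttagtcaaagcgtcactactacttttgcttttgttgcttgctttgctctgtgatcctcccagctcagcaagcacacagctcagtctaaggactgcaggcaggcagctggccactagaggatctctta
Acot4 (chr12:84038129-84038378, plus strand): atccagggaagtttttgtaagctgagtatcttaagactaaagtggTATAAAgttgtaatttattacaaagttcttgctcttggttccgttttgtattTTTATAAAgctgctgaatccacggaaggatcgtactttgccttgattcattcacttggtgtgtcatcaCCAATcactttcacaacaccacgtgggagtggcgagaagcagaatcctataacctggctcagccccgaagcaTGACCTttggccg
The search window also took in the first 50 bases after the start. Acot4 held 1 AGGTCA half-site and 3 matches to TATAAA, some of which overlap, and Acot1 and Acot2 held neither. Whether these matches act as a TATA box was not tested. In the cluster the half-site also occurred in the windows of Acot3 and Acot5, and Acot6 had no entry. It was absent from those of Acot7, Acot8, Acot9 and Acot11, against 16.3% of 32851 promoters in all. TATAAA was found in 13.6% of promoters, and also in the window of Acot9. The full direct repeat AGGTCANAGGTCA was in no window of the family and in 0.0396% of promoters. Only exact matches were counted, and they are so rare that their absence here is not informative. CCAAT was present upstream of all 4 type I members and of Acot8 and Acot9, against 37.4% of promoters. The window of Acot7 lies 7508 bases from the start given in the deposited table, so it does not describe the sequence at that start. By CpG count, Acot8 had 19, the type I members had 2 to 10, and the median of all promoters was 7.0. These matches describe letters only. Acot13 had no entry.

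Of the other acyl-CoA thioesterase genes outside the cluster, Them4, which encodes a mitochondrial enzyme, went from 4.02 to 6.90 FPKM, and its ratio was 1.71 (95% interval 1.37 to 2.15). Acot12, the cytosolic acetyl-CoA hydrolase of liver, had about 1 and 6 fragments, 0.0162 and 0.115 FPKM, and a ratio of 7.06 with an interval from 0.857 to 325. Baat was listed at 0 at D0 and at 0.0621 FPKM at D7, and Them5 and Olah at 0 in both.

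Genes of fatty acid oxidation were counted beside the thioesterases, and the difference between the lists was not tested. Over all genes above 0 in both libraries, 18.5% were higher and 13.2% lower, and the median difference of log2(FPKM + 0.1) was 0.015. Of 16 genes of mitochondrial fatty acid oxidation, 14 passed 2.0-fold upwards at D7 and 0 downwards. Their median difference was 2.69 on the log2(FPKM + 0.1) scale, where the 9 thioesterases had 0.28 and all 23361 genes 0.00. The largest were Cpt1b, the muscle form of carnitine palmitoyltransferase, at 1.25 and 34.7 FPKM, Acadm, the medium-chain dehydrogenase, at 25.8 and 330 FPKM, Hadhb, a trifunctional protein subunit, at 47.3 and 511 FPKM, and Acaa2, a thiolase, at 33.0 and 319 FPKM. Of 15 peroxisomal oxidation genes above 0 in both, 9 were higher and 0 lower, with a median of 1.47. Abcd2, a peroxisomal importer of very long chain acyl-CoA, went from 0.321 to 12.6 FPKM and Ehhadh, the bifunctional enzyme, from 2.09 to 23.5. Crat, carnitine acetyltransferase, went from 9.89 to 82.4 FPKM.

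The enzymes that make acyl-CoA were counted in the same way. Of 9 acyl-CoA synthetase genes above 0 in both libraries, 2 were higher, 1 lower and 6 within 2.0-fold, near the shares of 18.5% and 13.2% over all genes. Acsl1, the long-chain synthetase of adipocytes, went from 3.89 to 500.4 FPKM, and its ratio was 129 (exact 95% interval from 115). Slc27a1, a fatty acid transporter with synthetase activity, was at 3.70 and 28.4 FPKM, and Slc27a6 was at 2.18 and 0.589. The synthetases summed to 84.4 FPKM at D0 and 623 at D7, beside 198.9 and 165.7 for the 9 thioesterases. The synthetase sum followed Acsl1, which alone made up 3.89 FPKM of it at D0 and 500.4 at D7. Ratios of these sums describe transcripts and not enzyme activity.

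**Figure D5:**
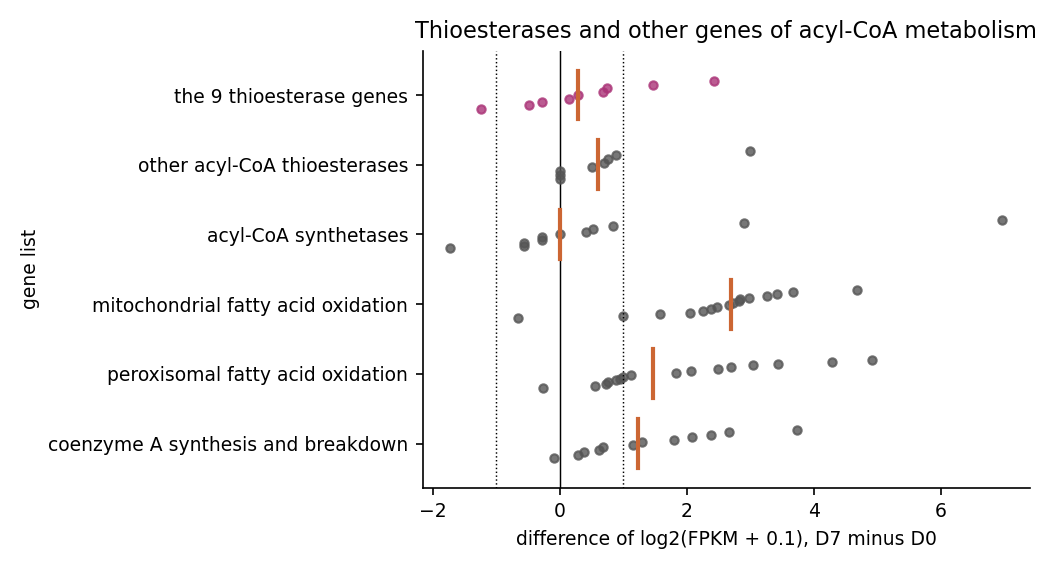
Difference of log2(FPKM + 0.1), D7 minus D0 (horizontal axis), for the 9 thioesterase genes (pink) and for 5 gene lists (vertical axis), 1 point per gene. Orange lines are medians and dotted lines mark 2.0-fold. The median is 0.28 for the 9 genes, 2.69 for mitochondrial and 1.47 for peroxisomal fatty acid oxidation, and 0.00 for the acyl-CoA synthetases. That 0.00 is the value of a gene listed at 0 in both libraries. Over the synthetases with at least 1 FPKM in either library the median is 0.47.

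The PPAR genes, whose products are known regulators of several members, were checked beside them. Pparg was at 3.83 FPKM at D0 and 128 at D7, Ppara at 0.219 and 4.11, and Ppard at 18.6 and 24.0. Of 9 other PPAR target genes above 0 in both, 8 were higher at D7, among them Cd36, a fatty acid uptake protein, at 0.665 and 478 FPKM. The other 1 was lower, Fabp3, at 37.9 and 7.29 FPKM. The shares over all genes were 18.5% higher and 13.2% lower. Whether any receptor had a part in the levels of the thioesterases was not tested.

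The labels of the stages were checked with marker genes. Beside them, 18.5% of all genes above 0 in both libraries were higher at D7 and 13.2% were lower. All 8 adipocyte markers above 0 in both libraries were higher at D7. Ucp1 and Elovl3, brown adipocyte genes, were listed at 0 at D0 and had 4.57 and 34.2 FPKM at D7. The Ucp1 level was thus low, below 6.81 FPKM, the D7 median of genes above 0 in both libraries. The preadipocyte and fibroblast markers went both ways, with 3 of 8 lower at D7, 2 higher and the others within 2.0-fold. Col1a1, a collagen gene, was at 1900 and 601 FPKM and Pdgfrb, a growth factor receptor, at 114 and 38.9, whereas Dlk1, a known preadipocyte gene, was at 3.57 and 38.5 and Cd34 at 1.85 and 15.4. Of 8 proliferation markers, 7 were lower at D7, with a summed level of 117 FPKM at D0 and 48.0 at D7. Macrophage markers moved too, with 11 of 12 higher at D7 and a sum of 162 and 617 FPKM. Of these 12 listed markers, Adgre1 had 1.40 and 14.3 FPKM and Ptprc, which is not particular to macrophages, 0.331 and 1.51. The sum of 8 skeletal muscle markers was 46.7 and 3.37 FPKM, nearly all of it Acta1, with Ckm and Myod1 at 0. The 6 endothelial markers summed to 1.58 and 2.62 FPKM. The 6 neuronal markers summed to 101 and 18.6 FPKM, nearly all of it Tubb3, with Rbfox3 at 0. No macrophage marker was listed at 0. The part of these marker changes in the thioesterase levels was not tested.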

How the data were processed

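RNA was sequenced from brown preadipocytes (D0) and brown adipocytes (D7), with 1 library per stage. The authors removed adaptor, low-quality, duplicate and rRNA reads and aligned the rest with SOAP2 to the mm10 genome and to genes, allowing at most 5 mismatches, and the submitters' processing notes name Bowtie2. The deposited values are FPKM, 1 per gene and library, and the deposited table has 27324 rows, of which 3963 carried no values. No column was left unmatched to a library.

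Ratios of D7 to D0 were taken without a pseudocount for genes above 0 in both libraries, and called at 2.0-fold or more in either direction. The threshold is that of the study's methods, which do not state a floor or a scaling. The alternative scaling with a floor of 0.01 and equal medians was added after seeing the data and comes from earlier work on them that derived it from the folds in the study. Medians of lists used log2(FPKM + 0.1). Fragments behind a value were recovered from 605 single-exon genes of at least 600 bp, with a length correction of 179 bp (D0) and 182 bp (D7) and denominators of 21470949 and 18265679 fragments. All 81 and 88 low values, those with at most 20 fragments, came within 0.1 of a whole number. For members, exon lengths of the named GENCODE M21 transcript were used, and 11 of 17 values above 0 came within 0.1 of a whole number, so their fragments are approximate. The 95% intervals are exact (Clopper-Pearson), and 3 fragments were taken as the floor. Windows of 90 bases were compared between transcripts. Promoter windows are RefSeq entries of 250 bases before and 50 after a start.

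The members, the 17 lists, including the markers, and the alternatives were chosen with earlier results of these data known. Named genes are all members, the other thioesterases, genes that overlap or nearly copy a member, and at most the 4 largest differences past 2.0-fold per list and direction. Ppard, Pctp, Ptprc, Ucp1, Elovl3, Ckm, Myod1 and Rbfox3 are outside that rule in part and were named after their values were seen. The recovery and the intervals were tested on simulated data. Protein thioesterase and erythroid lists gave 0 genes higher and 0 lower. Scripts ran in Python (version 3.11.15), with scipy 1.17.1 for intervals, matplotlib 3.10.9 for plots, and pandas 2.3.3 and numpy 2.4.6 for tables.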

Additional observations from a re-analysis of the deposited data

How the results depend on the processing

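Acot2 and Acot4 stayed at or above 2.0-fold and Acot7 at or below 0.5 in each of 9 alternatives for the ratio (TPM, 4 scalings, 2 pseudocounts, a filter and summed symbols). These are not 9 separate checks. The filter and the summed symbols left the ratios of these genes unchanged. TPM and the scalings each moved their log2 ratios by a constant, the largest being −0.35. The ranges were 2.20 to 2.81 for Acot2, 2.59 to 6.44 for Acot4 and 0.330 to 0.430 for Acot7. Acot1 (0.641 to 0.871), Acot8 (1.27 to 1.62) and Acot9 (0.557 to 0.716) kept their direction. Acot11 (0.959 to 1.22) and Acot13 (0.863 to 1.10) turned below 1 only after scaling to equal medians over all values with a floor of 0.01, which was chosen after seeing the data. There the median log2 ratio was -0.14 over the same 8 genes, -0.061 over 9 with Acot3 raised to the floor at D0, and -0.35 over all genes, and 3832 genes were lower. The count of members higher was 3 of 8 at 1.5-fold and 3 of 9 with that floor, where Acot3 is counted from about 3 fragments. With that floor 2836 of all 23361 genes were higher. The members higher were 1 at a threshold of 4.0-fold, 1 with Acot1 to Acot4 summed and 0 without these 4. The count of members lower was 0 at 4.0-fold. With a pseudocount of 1, 1533 of all 23361 genes were higher and 1021 lower. Of the 14986 genes above 0 in both libraries, 1211 were higher and 578 lower at 4.0-fold, and 4148 and 3538 at 1.5-fold. The summed level was 388 at D0 and 317 at D7 in TPM, and without the most abundant gene of each library 127 and 98.9 FPKM. No paired analysis was possible because each stage has 1 library, and none could be left out. Depth limits Acot3, Acot5 and Acot12, which rest on 17 fragments or fewer.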

Other observations

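Genes that make, break down and carry coenzyme A, the product that thioesterases release, were examined as a list beside the family. Of 12 such genes, 7 passed 2.0-fold upwards at D7 and 0 downwards, with a median difference of 1.23 on the log2(FPKM + 0.1) scale, where the background share of higher genes was 18.5%. Nudt7, a peroxisomal enzyme that degrades coenzyme A, was at 6.65 FPKM at D0 and 89.9 at D7. Pank3, a pantothenate kinase at the head of coenzyme A synthesis, was at 11.8 and 75.6 FPKM. Slc25a42, a mitochondrial carrier of coenzyme A, was at 2.86 and 15.4 FPKM, and Coasy, the last synthesis enzyme, was at 10.6 and 45.0.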
